A study of Mus musculus with 20 samples.

Results

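Brain tissue of mice transgenic for mutant human TDP-43 was compared with brain tissue of wild-type mice across all genes that the arrays detected. The comparison uses 12 of the 20 arrays of the series, 6 from mutant and 6 from wild-type mice, chosen by the tissue and genotype in the sample titles; the other 8 arrays are muscle. Per the labels, the mutants are heterozygote transgenic for human mutant TDP-43 and the controls are called heterozygote wt. Both groups are on a C57BL/6J background and 17 weeks old, the design text calls the mice male, and each array carries a mouse number of its own. The promoter of the transgene, the mutation and the number of founder lines are not given in the sources used here.

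TDP-43, the product of Tardbp, is a mainly nuclear RNA-binding protein that controls the splicing and stability of many transcripts and limits the amount of its own messenger RNA. In ALS and related dementias it leaves the nucleus of neurons and collects in cytoplasmic inclusions. Mutant TDP-43 has been linked in cell and animal models to disturbed mitochondria, autophagy, endosomal traffic and axonal cytoskeleton, the gene groups described here beside the markers of brain cell types.

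All levels are log2 of background-corrected, normalized bead intensity, and all differences are mutant minus wild type on that scale. A probe was tested when it was above background (detection p under 0.05) on at least 6 of the 12 brains. This left 12423 of 25697 probes, which measure 8956 named genes. "Passed" means a limma p-value below 0.05 after Benjamini-Hochberg adjustment over all tested probes.

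Markers of oligodendrocytes (5 of 5 on the array), astrocytes (5 of 5) and microglia (4 of 5) were above background on all 12 arrays, as were the neuronal markers Syt1, Slc17a7 and Gad1, while the probes for Snap25, Tubb3 and Nefl were above background on none. Of the 4 muscle markers, Acta1 was above background on all 12 (means 6.30 in mutants and 6.28 in wild types), Mylpf on 2 mutants, and Ckm and Myh4 on none. Some arrays stood apart before any genotype was considered. On the first principal component, which held 45.4% of the variance, wild types 2 and 4 (38.5 and 41.05) and mutant 2 (32.7) lay far from the other brains (-20.3 to 0.042). On the second, with 13.1% of the variance, wild type 1 lay at -33.2 and the other brains between -3.51 and 18.5.

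The brains also differed in sex-linked and regional transcripts. The Y-linked Eif2s3y was above background on 3 mutant brains (2, 3 and 5) and 3 wild-type brains (1, 2 and 4), with levels of 6.33 to 7.39. It was at 4.24 to 4.31 on the other 6, although the design text says male, and it was above background on all 8 muscles. The female-expressed Xist (ILMN_3123341) reached 5.03 to 5.63 on those other 6 brains and 4.28 to 4.74 on the Eif2s3y-positive ones. The Purkinje cell gene Pcp2 was at 9.15 to 10.4 in the mutants, at 9.11 to 10.2 in 5 wild types, and at 4.50, not above background, in wild type 6. Both genotypes hold 3 brains of each Eif2s3y state. However, the Eif2s3y-positive wild types (1, 2 and 4) are the wild types that stood apart on a component. Of the Eif2s3y-positive mutants, only mutant 2 did. The Eif2s3y-positive comparison is therefore not balanced for arrays that stand apart. Some results are also given without the 3 arrays apart on the first component, a fit that keeps wild type 1.

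One probe passed the test, 0.00805% of those tested and 0.0112% when each gene is counted once. Masp2, the serine protease that starts the lectin pathway of complement, rose in mutant brain. Its probe ILMN_1216142 had a lowest, median and highest level of 5.70, 6.06 and 6.35 in the mutants, against 4.61, 4.87 and 5.03 in the wild types. Every mutant lay above every wild type, which must then hold in any subset of these brains. The mean was 6.02 ± 0.22 in mutants and 4.85 ± 0.17 in wild types (SD, n = 6 each), a difference of 1.18 (SE 0.12, limma adjusted p = 0.000932) or 2.26-fold.

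The Masp2 difference was 1.22 among Eif2s3y-positive brains, 1.13 among Eif2s3y-negative brains and 1.18 without the 3 arrays that stood apart. It was 1.13 without wild type 1 (limma adjusted p = 0.00352). With 3 mice per genotype the limma adjusted p was 0.576 and 0.23, and with levels of the cerebellar and pituitary lists as covariates it was 0.056. The size depends on the background correction, since without it the difference was 0.39 (limma adjusted p = 0.0133). The other Masp2 probes carry little signal: ILMN_3101073 was above background on 3 mutants and 0 wild types, and ILMN_3027989 on none of the 12 brains. In muscle, where it was above background on 5 of 8 arrays, ILMN_1216142 differed by 0.40.

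None of the other tested complement genes had an unadjusted p below 0.05. Of the 9 in the list, Masp2 included, 6 were above wild type and 3 below, with a median difference of 0.048 against 0.0079 over all tested genes. C2, which MASP-2 cleaves, differed by -0.17 (limma adjusted p = 0.749) and C4b, from the other family of its substrates, by -0.014. The C1q chains C1qa, C1qb and C1qc, made by microglia, differed by -0.067, 0.081 and 0.14, and the inhibitor Serping1 by 0.048.

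Masp2 is the next protein-coding gene to Tardbp on chromosome 4. In the RefSeq annotation the pair lie on opposite strands and their annotated spans overlap. How far transcription of one gene contributes to the other's probe was not tested. The 250 bases before each annotated gene start are shown because these neighbours had differences of opposite sign and their start sites differ in CG content. They are from RefSeq on build GRCm38.p6, 5′ to 3′ on the gene's own strand, with CG dinucleotides in capitals. Masp2 is at chr4:148602294-148602543 on the plus strand and Tardbp at chr4:148626997-148627246 on the minus strand.
Masp2: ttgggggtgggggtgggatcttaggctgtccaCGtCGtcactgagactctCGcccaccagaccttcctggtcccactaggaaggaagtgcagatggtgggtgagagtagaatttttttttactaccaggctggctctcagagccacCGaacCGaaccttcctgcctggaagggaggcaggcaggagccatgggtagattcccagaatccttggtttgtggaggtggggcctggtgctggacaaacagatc
Tardbp: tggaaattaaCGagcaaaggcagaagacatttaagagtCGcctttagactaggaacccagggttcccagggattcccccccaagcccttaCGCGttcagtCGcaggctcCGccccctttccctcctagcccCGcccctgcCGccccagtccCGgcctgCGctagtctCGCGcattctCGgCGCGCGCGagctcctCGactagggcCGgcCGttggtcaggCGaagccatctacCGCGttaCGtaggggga
The Masp2 window holds 5 CG dinucleotides and the Tardbp window 24. Of 32851 annotated promoter windows of that length, 55.6% hold 5 or more and 12% hold 24 or more.

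Mouse Tardbp itself was lower in mutant brain on 2 of its 3 tested probes, without passing. ILMN_3093089, the brightest, read 7.99, 8.15 and 8.31 (lowest, median, highest) in mutants, against 8.53, 8.70 and 9.08 in wild types. All mutants lay below all wild types. The difference was -0.58 (SE 0.10, limma adjusted p = 0.145), which puts mutants at 67.0% of wild type. ILMN_1244811 read 5.78, 6.04 and 6.45 in mutants, against 6.39, 6.56 and 7.05 in wild types, so the groups met only at their edges, where mutant 2 lay above 3 wild types. Its difference was -0.55 (limma adjusted p = 0.467). The dim ILMN_3029953, above background on 5 mutants and 3 wild types, differed by 0.12, and by -0.040 among Eif2s3y-positive brains. Whether these probes also bind RNA of the human transgene was not tested.

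**Figure D1:**
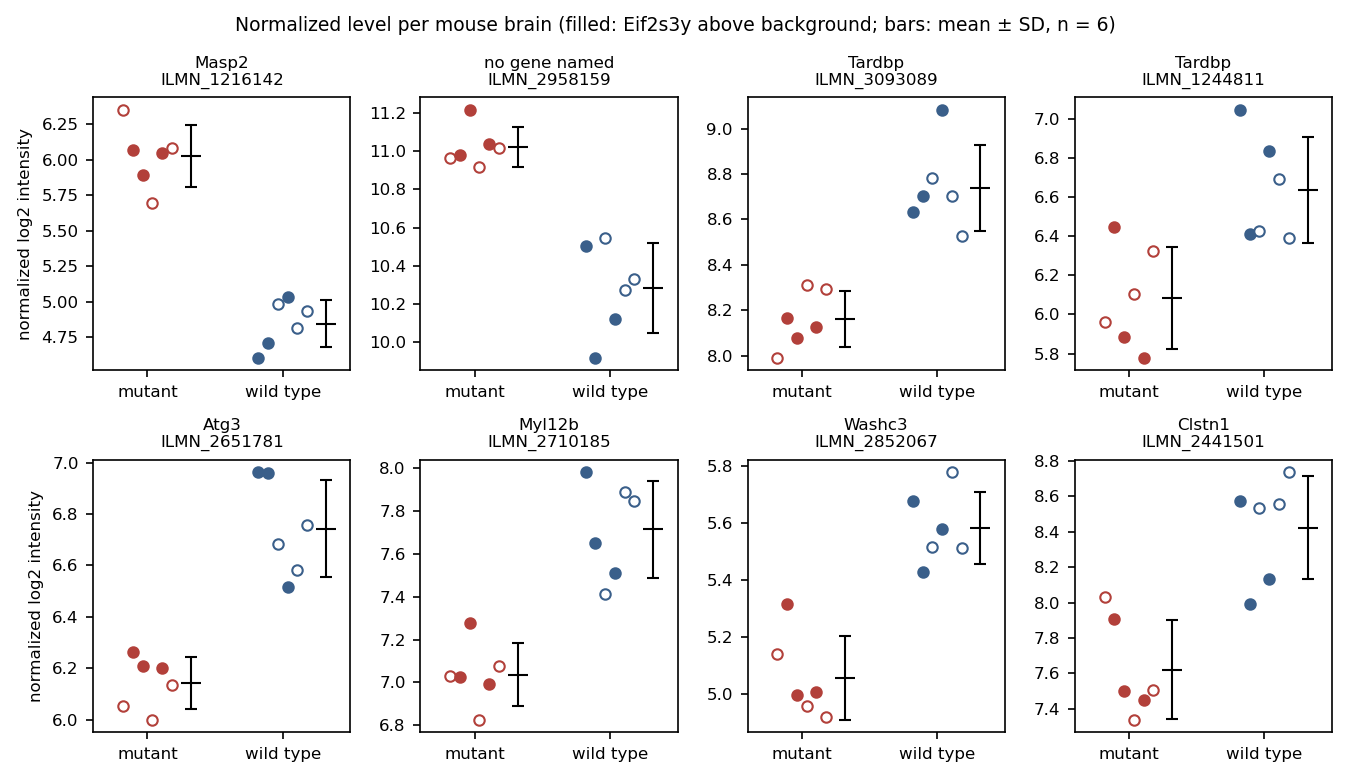
Normalized log2 intensity of 8 probes in each mouse brain, mutants (red) left of wild types (blue). Filled circles are brains with the Y-linked Eif2s3y above background, and bars show mean ± SD (n = 6). In 6 of the panels the mutants do not overlap the wild types; the exceptions are Tardbp ILMN_1244811 and Clstn1.

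An unnamed probe, ILMN_2958159, had the second lowest p of all. It is described although it falls outside the rule for named genes, and it was chosen after its values were seen. Its level was 10.9, 11 and 11.2 in mutants, against 9.92, 10.3 and 10.5 in wild types, with every mutant above every wild type. The difference was 0.74 (SE 0.11, limma adjusted p = 0.065), and it was 0.70 in muscle. It passed in 8 of 27 alternative analyses. With median scaling its limma adjusted p was 0.0321, and without background correction it was 0.0252.

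Genes close to Tardbp on chromosome 4 were also examined. The window was chosen after the values were seen, and its counts are a description only. Within 25 protein-coding genes of Tardbp on either side, 10 of 38 tested probes (26.3%) had an unadjusted p below 0.05, and without Masp2 and Tardbp 7 of 34 (20.6%). The share was 10.1% of 69 probes from 26 to 100 genes away, 8.47% of 626 on the rest of chromosome 4 and 6.95% of 10989 on other chromosomes. Over all tested probes it was 7%.

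The nearby probes did not share a direction. Clstn1, a synaptic calsyntenin 15 genes from Tardbp, was at -0.80 and the peroxisomal import gene Pex14 at -0.28. Mad2l2 was at -0.37 and H6pd, which makes NADPH in the endoplasmic reticulum, at -0.33. The neuropeptide gene Cort was at 0.46 on one probe and 0.22 on its other, and the exosome subunit Exosc10 at 0.22. The tested neighbours Mtor, Srm and Dffa, 5 probes, had differences between -0.039 and 0.17. A little farther out, the death receptor Tnfrsf25 (45 genes away) was at 0.67. None of these passed.

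**Figure D2:**
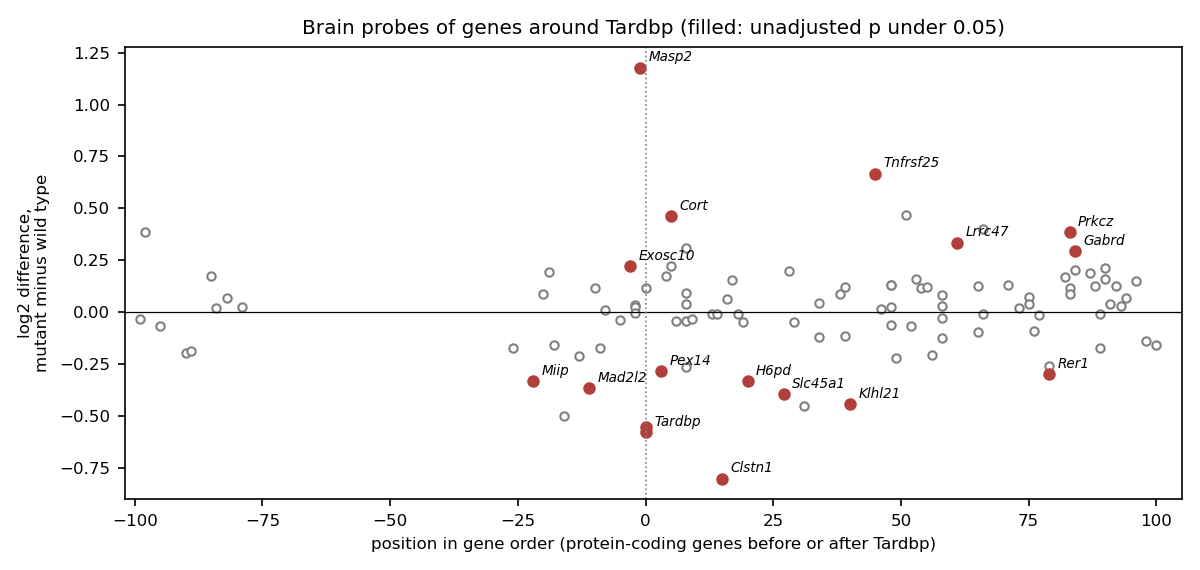
Difference between mutant and wild-type brain (log2, vertical) for every tested probe of genes within 100 protein-coding genes of Tardbp, in gene order (horizontal). Filled points have an unadjusted limma p below 0.05; Masp2 at 1.18 and Clstn1 at -0.80 are the extremes, and filled points lie on both sides of 0.

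Across the whole table, 870 probes had an unadjusted p below 0.05, where 621 would be expected by chance. The excess depends on the fit. With levels of the cerebellar and pituitary lists as covariates the number was 549, below that expectation. It ran from 637 to 1241 when any single brain was left out. Of the 870 probes, 562 were lower (4.52% of tested probes) and 308 higher in mutants (2.48%), so 64.6% were lower. With median scaling in place of quantile normalization, 408 were lower and 504 higher (44.7% lower), so the overall direction rests on the scaling. All 6 mutants lay below all 6 wild types on 48 probes (0.386%) and above on 26 (0.209%). Without the 3 arrays that stood apart, 755 were lower and 630 higher (54.5% lower).

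The 24 named genes of lowest p, Masp2 and Tardbp included, were 19 lower and 5 higher in mutant brain. They were chosen for these values, so the values describe them and do not test them. In 14 of them every mutant lay below every wild type, and Masp2 was the one with every mutant above. Over all tested genes the shares were 0.368% and 0.223%, but choosing genes by p favours such separation. All 24 had the same sign in Eif2s3y-positive and Eif2s3y-negative brains. Of the 20 also tested in muscle, 10 had the same sign there. The 2 of these with an unadjusted limma p below 0.05 in muscle were Tardbp and its neighbour Masp2. Myl12b had such a p with the opposite sign. Of all probes tested in muscle, 3.11% had such a p in either direction. Of the 24, 5 lie on chromosome 4, which holds 6.12% of tested genes, and 10 have several tested probes. For Tardbp, Clpx, Cd151 and Atp6ap2 one of these has the opposite sign.

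**Figure D3:**
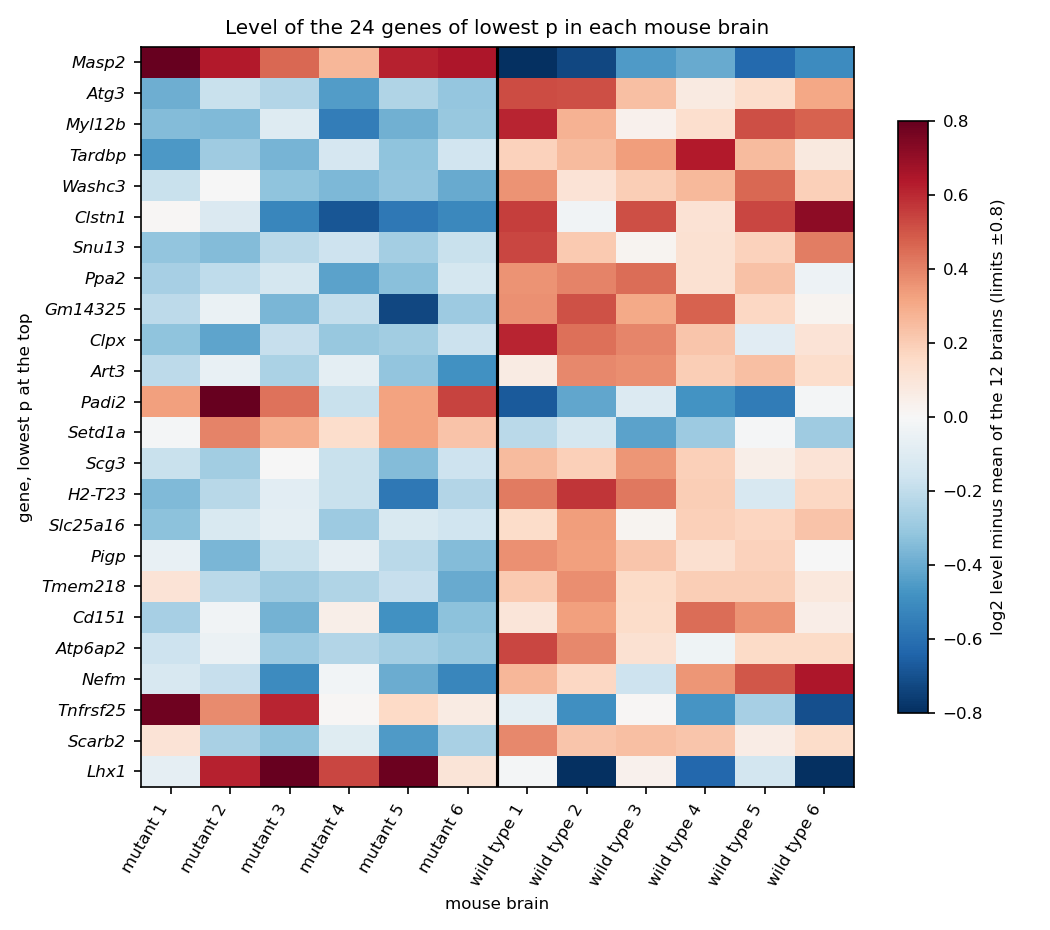
Level of the 24 genes of lowest p (rows, lowest p at the top) in each mouse brain, mutants left of the line and wild types right of it, as log2 level minus the gene's mean over the 12 brains. Masp2, Padi2, Setd1a, Tnfrsf25 and Lhx1 are higher in mutants on average and the other 19 lower; the colour scale ends at ±0.8.

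Atg3, the enzyme that attaches LC3-family proteins to lipid, read 6.00, 6.17 and 6.26 in mutants, against 6.52, 6.72 and 6.96 in wild types. The groups did not overlap, and the difference was -0.60 (SE 0.10, limma adjusted p = 0.111). Washc3, a subunit of the WASH complex that builds actin on endosomes, read 4.92, 5.00 and 5.32 in mutants, against 5.43, 5.55 and 5.78 in wild types, a difference of -0.53 (limma adjusted p = 0.145). Its brighter probe ILMN_1244642 differed by only -0.12. Atp6ap2, an accessory subunit of the proton pump that acidifies lysosomes, was at -0.44, with -0.32 on 2 further probes and 0.070 on its brightest. Scarb2, a lysosomal membrane protein that carries glucocerebrosidase, was at -0.43.

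Myl12b, a regulatory light chain of non-muscle myosin, read 6.82, 7.03 and 7.28 in mutants, against 7.41, 7.75 and 7.98 in wild types. The groups did not overlap, with a difference of -0.68 (SE 0.11, limma adjusted p = 0.111), -0.52 on another probe and -0.11 on its brightest. In muscle the same probe was at 0.43, and the genotype effects of the tissues differed by 1.11 (limma interaction adjusted p = 0.0321, passed by 0.0495% of probes tested in both tissues), though by 0.64 (0.0742) without background correction and 1.12 (0.0569) with median scaling. Nefm, the medium neurofilament chain of axons, read 7.45, 7.68 and 7.95 in mutants, against 7.81, 8.28 and 8.62 in wild types. These groups overlapped, with a difference of -0.59 (SE 0.14, limma adjusted p = 0.421).

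Clstn1, a cargo adaptor for kinesin in axons, read 7.34, 7.50 and 8.03 in mutants, against 7.99, 8.55 and 8.74 in wild types. Only mutant 1 reached above the lowest wild type, wild type 2. The difference was -0.80 (SE 0.15, limma adjusted p = 0.239), and without the 3 arrays that stood apart it was -1.04 and passed (limma adjusted p = 0.03). Scg3, which sorts cargo into secretory granules, was at -0.38 with no overlap of the groups.

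Among the rest, Ppa2, the mitochondrial pyrophosphatase, was at -0.51 (-0.18 and -0.25 on other probes), Clpx, the unfoldase of the mitochondrial ClpXP protease, at -0.56, and the mitochondrial carrier Slc25a16 at -0.37. The groups did not overlap for these 3 genes, although a second Clpx probe was at 0.12. Snu13, a protein of the spliceosome and of small nucleolar particles, was at -0.50, and Pigp, which helps to make GPI anchors, was at -0.41 and -0.33 on its 2 probes. Art3, H2-T23, Tmem218, Cd151 and Gm14325 lay between -0.61 and -0.41, but brighter probes were at 0.11 for Cd151, -0.054 for H2-T23 and -0.024 for Tmem218. The remaining Cd151 probe was at -0.31. Art3 was above background in 2 of 6 mutants and H2-T23 in 4 of 6.

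The genes that were higher are of different kinds. Padi2, the peptidylarginine deiminase of oligodendrocytes, read 4.99, 5.55 and 5.97 in mutants, against 4.50, 4.72 and 5.16 in wild types, a difference of 0.75 (SE 0.16, limma adjusted p = 0.303). Mutant 4 was the one mutant within the wild-type range. Setd1a, a histone H3 methyltransferase, was at 0.45. Lhx1, a transcription factor of Purkinje cells, was at 0.93 (0.81 to 1.04 leaving out 1 brain) and was above background in 4 of 6 wild types. Its level was 4.48 in wild type 6, the brain with Pcp2 not above background, and 4.36 in wild type 2.

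Most mitochondrial genes lay slightly below wild type. In the 4 lists of respiratory chain complexes and ATP synthase, 57 of 73 tested genes (78.1%) were below wild type, against 48.2% of all tested genes. The median difference was -0.088, a reduction of a few percent. An unadjusted p below 0.05 with a lower level was found for 14 of them (19.2%), against 4.13% of all tested genes, and with a higher level for 0, against 2.65%. None of the 73 passed over all probes. In muscle the same genes had 27 of 73 below wild type and a median of 0.017.

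The number below wild type was 56 of 73 without the 3 arrays that stood apart, 57 among Eif2s3y-positive brains, 52 among Eif2s3y-negative brains and 56 with regional levels as covariates. The lower genes with an unadjusted p below 0.05 numbered 13, 8, 7 and 8 in these 4 analyses. Of all tested genes, 45.3%, 53.9%, 45.5% and 48.1% were below wild type in the same analyses, and 5.25%, 3.26%, 3.53% and 2.51% were lower at that p. With median scaling 53 of 73 were below wild type, against 40.5% of all genes. The fit without the 3 arrays keeps wild type 1, the highest brain for mean ATP synthase (10.18) and complexes II and III (9.594). Leaving out any single brain, wild type 1 included, kept the list medians negative. They ran from -0.11 to -0.059 for complex I and -0.077 to -0.0093 for complexes II and III. The ranges were -0.17 to -0.11 for complex IV and -0.091 to -0.065 for ATP synthase. In bulk tissue, fewer cells of a type and less RNA per cell cannot be told apart.

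By complex, 24 of 32 tested genes of complex I, the entry point for electrons from NADH, were below wild type (median -0.077). The examples of lowest p were Ndufa6 (-0.31), Ndufb5 (-0.36), Ndufs3 (-0.30) and Ndufb2 (-0.44). For complexes II and III the count was 7 of 11 (median -0.023), and this median was 0.031 among Eif2s3y-negative brains and 0.0044 with median scaling. The succinate dehydrogenase subunit Sdhb read 8.16, 8.31 and 8.69 in mutants, against 8.60, 8.75 and 8.94 in wild types, a difference of -0.41 (SE 0.10, limma adjusted p = 0.421).

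Complex IV, cytochrome c oxidase, had 14 of 16 genes below wild type (median -0.13). Cox5a, one of its nuclear-encoded subunits, read 10.91, 11.06 and 11.25 in mutants, against 11.28, 11.31 and 11.44 in wild types, with every mutant below every wild type and a difference of -0.26. Cox6c was at -0.44 and the assembly factor Surf1 at -0.26. ATP synthase had 12 of 14 genes below (median -0.078), with Atp5pb at -0.31, Atp5a1 at -0.42 and Atp5e at -0.26. The mean level of the ATP synthase list was 9.92 to 10.01 in mutants and 10.02 to 10.18 in wild types, so all 6 mutants lay below all wild types, though the ranges nearly touch.

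Genes upstream of the chain and of the machinery that builds the complexes followed. In the TCA cycle 11 of 15 genes were below wild type (median -0.11), among them Pdhb (-0.35) of pyruvate dehydrogenase and Idh2 (-0.29). At an unadjusted p below 0.05, 2 of the 15 were lower. With regional levels as covariates, or among Eif2s3y-positive brains, 0 were, with 11 below wild type in each. The mitochondrial ribosome, which translates the mitochondrially encoded subunits, had 41 of 66 below (median -0.053) with 8 lower and 0 higher at an unadjusted p below 0.05, against 48.2% below, 4.13% lower and 2.65% higher over all tested genes. With regional levels as covariates 43 were below and 3 lower at that p, and among Eif2s3y-negative brains 42 and 3. Of all tested genes, 2.51% and 3.53% were lower at that p in these fits. Mrpl52 (-0.39) had every mutant below every wild type, and Mrps27 was at -0.42, Mrpl18 at -0.32 and Mrpl27 at -0.26. The list's mean level was 7.93 to 8.02 in mutants and 8.03 to 8.06 in wild types, again without overlap. Mitochondrial proteases, chaperones and import had 14 of 22 below and 4 lower at that p, Timm10 (-0.34), Pmpcb (-0.35), Trap1 (-0.28) and Phb2 (-0.21), and this list's median of -0.030 was 0.0096 without the 3 arrays that stood apart. Genes of mitochondrial fusion, fission and mitophagy were evenly split, with 9 of 18 below and a median of 0.0089.

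**Figure D4:**
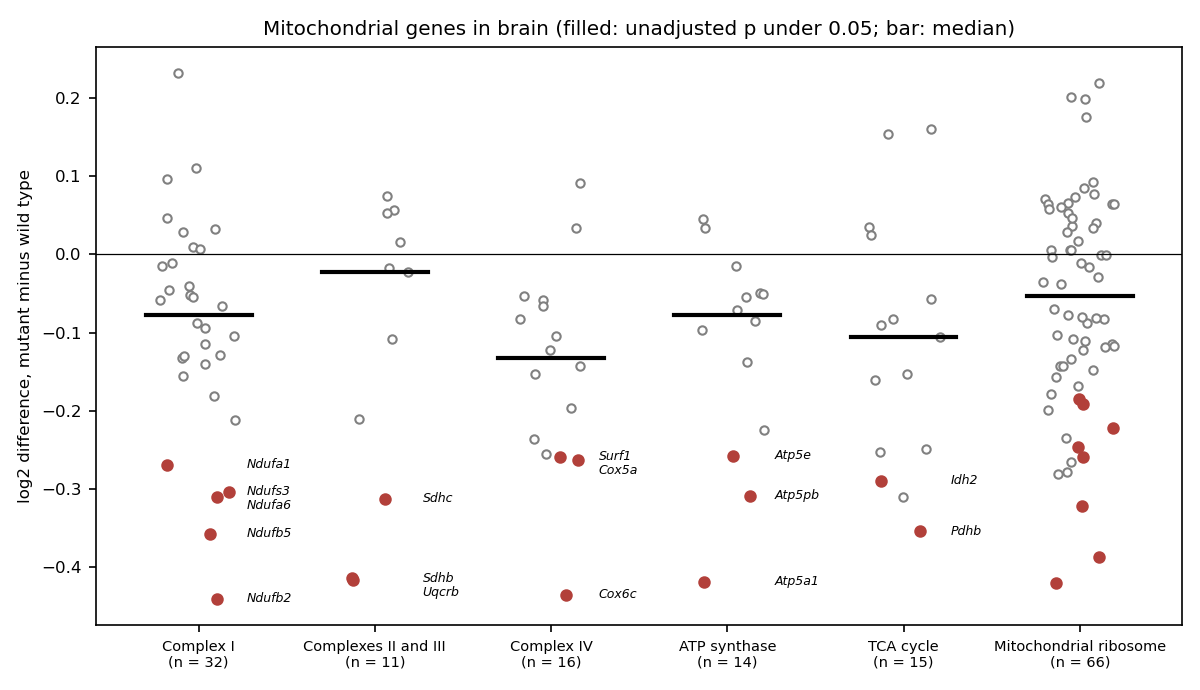
Difference between mutant and wild-type brain (log2) for each tested gene of 6 mitochondrial lists. Filled points have an unadjusted limma p below 0.05 and black bars are list medians; all filled points lie below 0, and the medians run from -0.13 for complex IV to -0.023 for complexes II and III.

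Fat oxidation and antioxidant genes were counted in the same way. Of 20 genes of mitochondrial beta-oxidation 12 were below wild type, and 6 were lower at an unadjusted p below 0.05, against 48.2% and 4.13% of all tested genes. Among the 6 were Acot13 (-0.30), Echs1 (-0.23), Mlycd (-0.40) and Acadl (-0.34). Among Eif2s3y-positive brains 15 of 20 were below and 5 lower at that p (median -0.17), and among Eif2s3y-negative brains 10 were below and 1 lower (median 0.0060). Of 18 antioxidant and Nrf2 target genes 14 were below (median -0.094), among them Gpx4, which reduces lipid peroxides (-0.31), Sod2, the mitochondrial superoxide dismutase (-0.27), Gstm1 (-0.26) and Gstm5 (-0.34). The list's mean level was highest in wild types 2 and 4 (8.44 and 8.39), which stood apart. At that p 4 genes were lower, but 1 without the 3 arrays apart, with regional covariates, or among Eif2s3y-negative brains. In these 3 fits 14, 13 and 13 were below. Me1, which makes NADPH for fat synthesis, was at -0.48. Cholesterol synthesis had 10 of 16 below (median -0.10), with Tm7sf2 (-0.30) below in every mutant.

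The regulators Ppargc1b and Esrra differed in opposite directions. Ppargc1b, a coactivator of mitochondrial genes, read 7.48, 8.36 and 8.51 in mutants, against 7.11, 7.46 and 7.78 in wild types. Only the lowest mutant overlapped, and the difference was 0.74 (SE 0.18, limma adjusted p = 0.421). Its partner nuclear receptor Esrra was at -0.26.

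Protein turnover genes were mixed. In autophagosome formation 14 of 26 genes were below wild type, with 3 lower and 1 higher at an unadjusted p below 0.05, against 48.2%, 4.13% and 2.65% of all tested genes. Atg3 and the LC3-family genes Gabarapl2 (-0.32) and Map1lc3b (-0.55) were the lower ones, and the lipid kinase Pik3c3 (0.22) the higher one. Map1lc3b read 6.08, 6.41 and 7.01 in mutants, against 6.62, 6.99 and 7.86 in wild types, with overlap. WASH, retromer and endosome sorting had 14 of 19 below (median -0.074), with Snx1 (-0.53), Rab5a (-0.26, no overlap) and Rab11a (-0.35) beside Washc3, which is represented in the list by its brighter probe.

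The proteasome had 17 of 27 below (median -0.061). Its catalytic subunit Psmb7 read 9.75, 9.85 and 9.92 in mutants, against 10.01, 10.1 and 10.3 in wild types, without overlap and with a difference of -0.29 (SE 0.078, limma adjusted p = 0.495). Vacuolar ATPase and lysosome genes had 12 of 28 below (median 0.0062). The chaperone gene Hspa4l was above background in 0 mutants and all 6 wild types. It was at least 1.14-fold lower in mutants against the lowest signal above background. Measured means were 4.44 in mutants and 4.82 in wild types (limma adjusted p = 0.421). Hspa4l met the detection filter through the wild types alone, so the filter favoured its direction and its p. Heat shock genes as a list stood at 7 of 14 below.

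Genes tied to ALS and to TDP-43 function were split between both directions. Of 25 ALS-linked RNA-binding proteins and hnRNPs 12 were below wild type (median 0.018), with differences from -0.21 for Elavl1 to 0.42 for Hnrnpa2b1. An unadjusted p below 0.05 was found for 0 of them in either direction. The ALS genes of protein clearance and transport had 6 of 13 below and 0 at that p, Vcp being at 0.21 and Chmp2b at 0.19. Over all tested genes 4.13% were lower and 2.65% higher at that p, so 0 in lists this small lies near the general share. Of 11 long-intron neuronal genes, a class whose transcripts TDP-43 sustains, 5 were below wild type, and Cntnap2 (-0.26) had the lowest p.

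**Figure D5:**
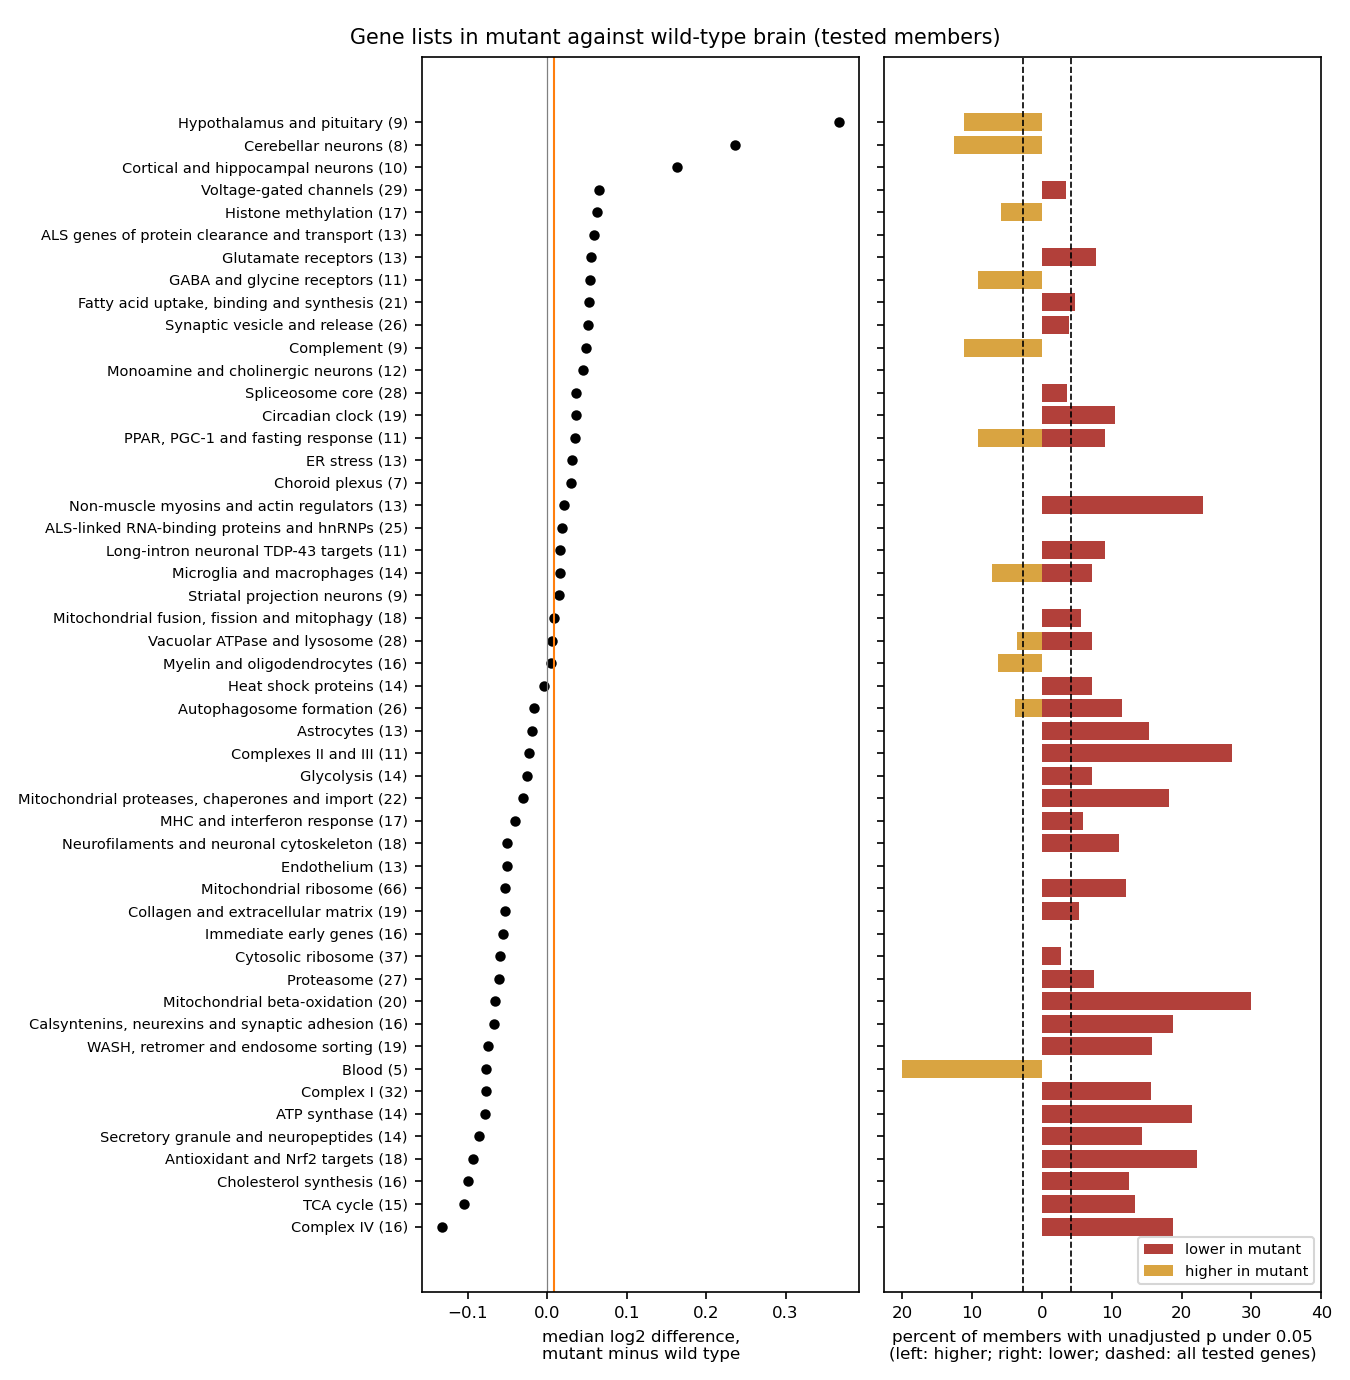
Left, median log2 difference between mutant and wild-type brain of each list, with tested members in parentheses and the median of all genes as the orange line. Right, percent of members with an unadjusted limma p below 0.05, higher in mutants to the left and lower to the right, with dashed lines at 2.65% and 4.13% for all tested genes; complex IV has the lowest median (-0.13) and hypothalamus and pituitary the highest (0.37).

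Neuronal, glial and immune lists gave no common direction. Mean levels of the neuronal lists ran against the first component, with r from -0.94 for voltage-gated channels to -0.29 for calsyntenins, neurexins and synaptic adhesion. Of 29 voltage-gated channel genes 10 were below wild type, but 3 among Eif2s3y-positive and 23 among Eif2s3y-negative brains. Synaptic vesicle genes had 9 of 26 below wild type (median 0.052), with a mean list level of 9.99, 10.1 and 10.3 in mutants, against 9.77, 10.1 and 10.3 in wild types. The lowest value was wild type 4, one of the arrays that stood apart, and among Eif2s3y-negative brains the median was -0.063. Neurofilament and cytoskeleton genes had 10 of 18 below (median -0.050), with Tuba1a at -0.30. Secretory granule genes had 9 of 14 below, among them the neuropeptide Sst (-0.36).

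Myelin genes were split evenly, 8 of 16 below, and the abundant myelin gene Mbp differed by -0.017. Astrocyte genes had 7 of 13 below (median -0.019, but 0.086 with median scaling), with Glul (-0.33) and S100b (-0.38) the lower ones at an unadjusted p below 0.05. The list's widest difference had the other sign: the water channel gene Aqp4 averaged 9.201 in mutants and 8.488 in wild types, a difference of 0.71 (SE 0.39, limma adjusted p = 0.749). The glutamate transporters Slc1a2 and Slc1a3 were at 0.18 and 0.11, and Gfap, which rises in reactive astrocytes, at 0.12. Microglial genes had 5 of 14 below, with the Fc receptor genes in opposite directions, Fcer1g at 0.65 and Fcgr3 at -0.40. The other 12 members differed by between -0.13 for Cd53 and 0.20 for Cx3cr1. Interferon and MHC genes had 12 of 17 below (median -0.041, but 0.029 with median scaling).

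Region-restricted genes varied most between mice. The pituitary hormone gene Prl read 7.43, 8.66 and 10.8 in mutants, against 4.23, 5.73 and 10.7 in wild types, a difference of 2.22 (SE 0.99, limma adjusted p = 0.689). Its low values were wild types 1 to 4, and wild types 5 and 6 lay within the mutant range. Growth hormone, Gh, ranged from 5.47 to 9.89 in mutants and from 4.19 to 8.88 in wild types. The hypothalamus and pituitary list had a median of 0.37, and of -0.10 to 0.64 leaving out 1 brain. The cerebellar list had a median of 0.24, and of -0.044 to 0.36 leaving out 1 brain. Among Eif2s3y-positive brains its median was -0.10. Its mean level was 5.53 in wild type 6 and 6.93 to 7.43 in the other wild types. The fit with regional covariates (median -0.34 for hypothalamus and pituitary) cannot assess these lists, because their own mean levels are the covariates. Their part in the other differences was not tested beyond the fit with regional covariates.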

How the data were processed

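Total RNA was extracted with Trizol and RNeasy columns, amplified to biotinylated cRNA with a MessageAmp kit and hybridised to Illumina bead arrays, per the labels' protocols. The deposited file holds the authors' non-normalized bead intensities, and the submitters' processing notes name GenomeStudio 2011.1. Beside each intensity, the authors deposited a detection p-value. The authors' processed intensities, whose lowest brain value is -14.5, served only as an alternative.

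The 12 brain arrays were background-corrected with normexp from the detection p-values (offset 16), quantile-normalized and log2-transformed (R 4.3.3, limma 3.58.1). Probes detected at p below 0.05 on at least 6 arrays were fitted with lmFit and eBayes without covariates, with Benjamini-Hochberg adjustment over all 12423 tested probes. Of 25697 probes, 23978 have 1 gene symbol and 1719 none. Detected probes per brain array ranged from 11736 to 12966, and the number of mice limits the precision. Muscle (8 arrays) was fitted likewise, and tissues were compared by an interaction term. The code was tested on simulated data.

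Named genes are the Tardbp probes and 5 protein-coding neighbours on each side, genes that passed, the 24 of lowest p, and up to 4 members of lowest p per list, each represented in a list by its brightest tested probe. Other genes given with values were chosen after their values were seen. Members and lists (54) were chosen with earlier results of these data known. The labels give each array its own mouse. Same-numbered samples of the groups share only a number. One further gene is not reported here.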

Additional observations from a re-analysis of the deposited data

Results flagged for a closer look

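The 6 brains of each genotype were looked at for each named probe and list, 310 looks in all. In 15 of them a single brain lay far from the other 5. Chance gives about 1 in 20, so the number found is near what chance gives. Of the 15, 7 were genes. Ndufb5 was low in mutant 5 (6.225), Me1 high in mutant 2 (6.431), Gstm1 high in mutant 2 (9.211) and Ctsb high in mutant 1 (11.18). Among wild types, Mrpl27 was low in wild type 2 (7.889), Mlycd high in wild type 1 (7.388) and Atp6ap1 low in wild type 4 (11.4).

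The other 8 were mean levels of lists. In mutants, striatal genes stood apart in mutant 2 (7.485) and skeletal muscle genes in mutant 6 (6.205). In wild types, mitochondrial proteases and import stood apart in wild type 2 (7.777), spliceosome genes in wild type 1 (8.197) and clock genes in wild type 1 (7.652). Wild type 6 stood apart for cerebellar genes (5.528), blood genes (7.03) and non-muscle myosins (7.951).

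The Myl12b genotype effect was 1.105 higher in muscle than in brain on the log2 scale, by the limma interaction test (adjusted p = 0.0321).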

How the results depend on the processing

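Over 27 alternative analyses, the Masp2 difference kept its sign and passed in 23. It did not pass with a replicate block (1.18, limma adjusted p = 0.0813), with regional levels as covariates (1.19), or among Y-positive (1.22) or Y-negative (1.13) brains alone. The number of probes that passed, 1 in the reported analysis, was 2 with median scaling, without background correction, with the authors' values, with offset 50, with probes detected on all 12 arrays, with trend and robust eBayes, without the 3 arrays apart and among Y-negative brains. It was 5 with array weights or all 20 arrays together, and 0 with the replicate block, with regional covariates and among Y-positive brains. Leaving out 1 brain gave 1 to 2. Y-negative brains alone called Rgs5 (-2.09) and Pou6f1 (1.36) but not Masp2.

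Probes with an unadjusted p below 0.05 numbered 1621 without the detection filter, 1372 with array weights, 1385 without the 3 arrays apart and 549 with regional covariates, and 637 to 1241 leaving out 1 brain. Lower probes numbered 932 without the filter and 344 with regional covariates (403 to 727 leaving out 1 brain). Higher probes numbered 504 with median scaling, 689 without the filter, 598 with weights, 474 with the replicate block, 630 without the 3 arrays and 205 with regional covariates, and 234 to 514 leaving out 1 brain, the highest without mutant 2. Tardbp ILMN_3093089 passed with all 20 arrays together (-0.60, limma adjusted p = 0.0212), and ILMN_3029953 was at -0.040 among Y-positive brains, a change of sign. The causes of these changes were not tested. Deviations of same-numbered brains correlated at -0.0703 to 0.621, and 0 of 6 brains matched its own number best. Dim probes, close to background, limit what these arrays resolve.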
